A study of Rattus norvegicus with 46 samples.

Results

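The response of the subacromial bursa to a supraspinatus tenotomy was compared with that of the tendon itself, 14 days after surgery. For each feature the change in the bursa (day 14 over control) was set against the change in the tendon (day 14 over control), and the difference of these log2 fold changes is called the interaction. The comparison used 22 of the 46 libraries of the series. The 5 control bursae and 5 control tendons came from rats that had no operation. The 6 day 14 bursae and 6 day 14 tendons came from rats whose supraspinatus tendon had been cut and whose bursa had been left in place. Day 14 tendons of rats whose bursa had been removed, and both tissues at day 3, served only as further comparisons. All libraries were made from poly(A) RNA of whole tissue. No source used here gives the rats' strain, sex or age. No label says which libraries share a rat, so the p-values measure the spread between libraries.

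The subacromial bursa is a thin, fat-bearing sac lined by synovium-like cells that lets the rotator cuff glide under the acromion. The supraspinatus tendon is a dense collagen cord made by tenocytes, and after it is cut its gap fills with granulation tissue, in which proliferating fibroblasts lay down collagen and matricellular proteins and remodel them with proteases. The bursa is not cut in this operation but lies against the wound, and bursal tissue of injured shoulders is known to become inflamed and fibrotic. A negative interaction below means that the bursa rose less, or fell more, than the tendon. A positive interaction means that it rose more, or fell less. Levels are read counts scaled to 1 M per library (CPM), changes are log2 fold changes with their standard error (±) from edgeR, and a feature was called when its Benjamini-Hochberg adjusted p was under 0.05.

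The 22 libraries held 12.4 to 69.9 M counts (M, mega). The deepest was day 14 bursa 6, and the other 21 held at most 22.6 M. Defining genes of each tissue were present: summed tendon cell genes stood at 4671 to 10897 CPM in control tendons against 82.2 to 2878 in control bursae, and summed adipocyte genes at 15026 to 39991 CPM in control bursae against 829 to 1414 in control tendons. Some libraries stood apart within their group. The summed level of 19 skeletal muscle genes was 49256 to 78836 CPM in control tendons against 2817 to 11119.7 in day 14 tendons, 869 to 27072 in control bursae and 2179 to 13315 in day 14 bursae. Control bursae 1 and 2 had 48.9 and 53.5% mitochondrial counts, against 13.3 to 17.0% in the other 3. Their summed brown adipocyte levels were 7263 and 3648 CPM against 74.0 to 132. Day 14 bursae had 111 to 2201 CPM of brown adipocyte genes and 11.3 to 22.8% mitochondrial counts. Leaving out control bursae 1 and 2 therefore set controls low in brown adipocyte genes against day 14 bursae of which some were higher. Control bursa 4 had 2231 CPM of cartilage genes against 86.9 to 206 in the other control bursae, and 2878 CPM of tendon cell genes against 82.2 to 413. Day 14 bursa 6 had 8133 CPM of interferon response genes against 612 to 941 in the other day 14 bursae. The counts below were recomputed without these libraries, and with the muscle level of each library as a covariate, and the list counts are given where they moved by 1.5 times or more. Since every control tendon had a higher muscle level than any of the other libraries used here, the muscle covariate nearly marks that group. When a call was lost under it, muscle content and the loss of the control tendon contrast cannot be told apart. The part of these differences in the results was not tested beyond that. In bulk tissue, fewer cells of a type and less RNA per cell cannot be told apart.

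**Figure D1:**
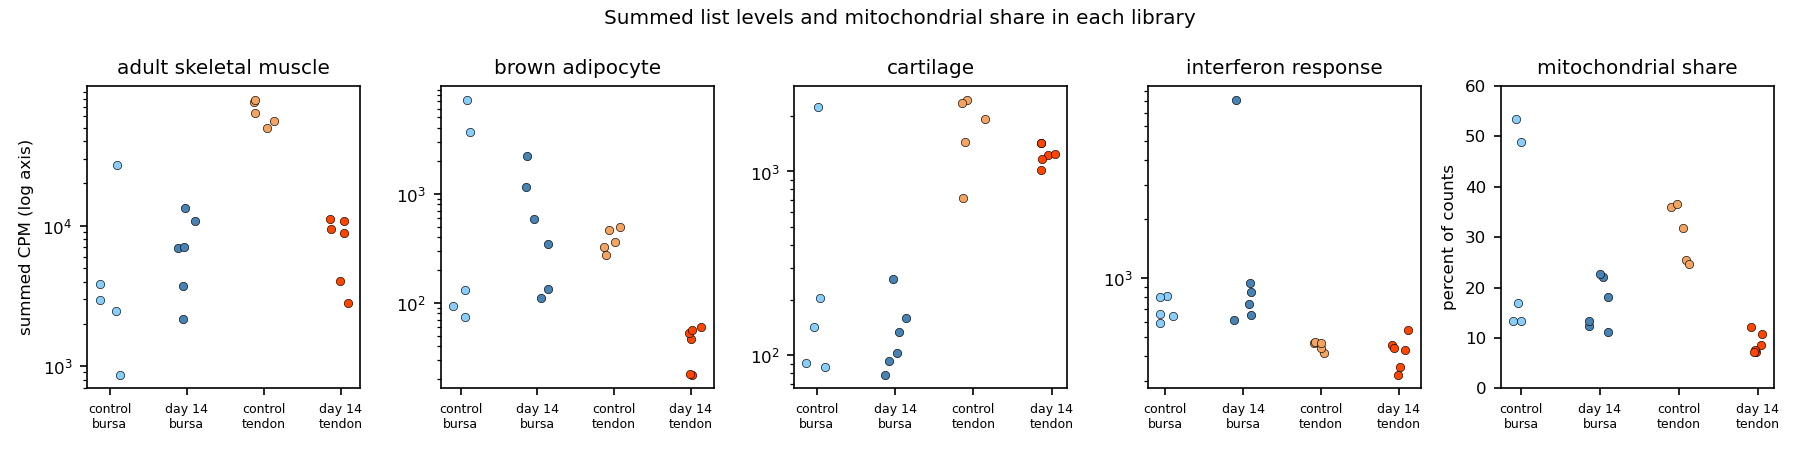
Each point is one library. The first 4 panels show the summed CPM of a gene list on a log axis and the last shows the percent of counts from mitochondrial transcripts, in control bursae (n = 5), day 14 bursae (n = 6), control tendons (n = 5) and day 14 tendons with the bursa intact (n = 6). Muscle levels are high in every control tendon, control bursae 1 and 2 stand apart in brown adipocyte level and mitochondrial share, control bursa 4 in cartilage level and day 14 bursa 6 in interferon level.

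Of 17429 features tested, 5948 (34.1%) differed between the tissues in their day 14 change. The interaction was lower in 3310 (19.0%) and higher in 2638 (15.1%), and its median over all features was -0.04. Of these, 2478 and 1904 kept their call and direction each time 1 of the 22 libraries was left out. More features changed in the tendon than in the bursa. In the tendon 5528 (31.7%) rose and 5203 (29.9%) fell, 61.6% together, and in the bursa 2326 (13.3%) rose and 2303 (13.2%) fell, 26.6% together. The 4629 bursa calls were 2687 without control bursae 1 and 2 and 2967 without control bursa 2 alone. Among features with a lower interaction, 2153 rose in the tendon without a call in the bursa, 631 rose in both, and 181 rose in the tendon and fell in the bursa. Among those with a higher interaction, 1936 fell in the tendon without a call in the bursa, 368 fell in both, and 82 fell in the tendon and rose in the bursa. Without control bursae 1 and 2 the interaction was called higher in 3987 and lower in 3676 features, and with the muscle covariate in 1667 and 1977.

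**Figure D2:**
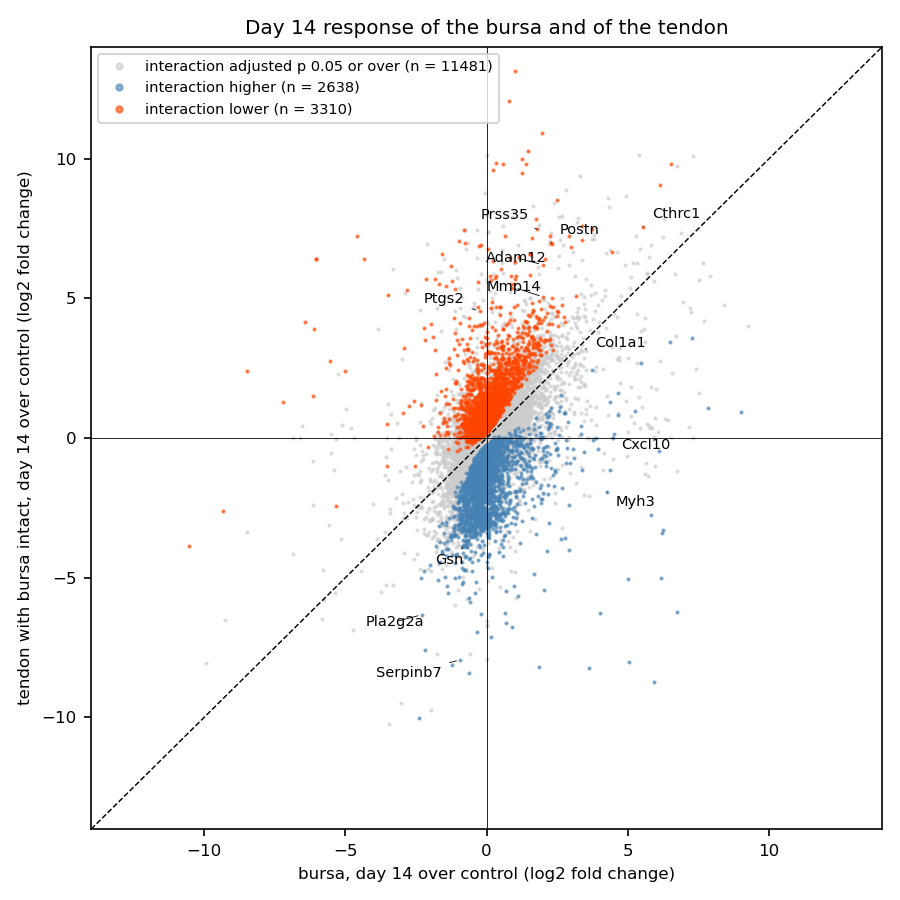
Each point is 1 of the 17429 features, with its log2 fold change (day 14 over control) in the bursa on the x axis and in the tendon with the bursa intact on the y axis. Orange marks a lower and blue a higher interaction at adjusted p under 0.05, and the dashed line marks equal change. Points spread much further along the tendon axis than along the bursa axis.

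Genes of the activated, matrix-building fibroblast rose in both tissues and rose further in the tendon. Of 12 tested members of the activated fibroblast list (13 in all), all 12 rose in the bursa and all 12 in the tendon, with median log2 changes of 1.48 and 3.52. The interaction was lower in 10 of them, with a median of -1.81. Of all features, 13.3% rose in the bursa, 31.7% rose in the tendon and 19.0% had a lower interaction. Postn encodes periostin, a matricellular protein of healing connective tissue. It stood at 323, 414, 1217, 1089 and 1213 CPM in control bursae 1 to 5 and at 3081 to 6331 (median 3569) CPM in the day 14 bursae. In control tendons it stood at 136, 117, 387, 195 and 177 CPM, and in day 14 tendons at 20094 to 30257 (median 25399) CPM. Every control bursa but the first lay above every control tendon, and every day 14 bursa lay below every day 14 tendon. Postn rose by 2.29 ± 0.31 in the bursa and by 6.99 ± 0.40 in the tendon, an interaction of -4.70 ± 0.44 (adjusted p = 2.3e-10).

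Adam12, a metalloprotease of activated mesenchymal cells, stood at 23.4 to 65.3 (median 36.2) CPM in day 14 bursae and 179.6 to 270.3 (median 204) CPM in day 14 tendons, from 4.07 to 18.0 (median 9.99) and 1.41 to 5.22 (median 3.21) CPM in the controls. Neither tissue's groups overlapped, and the interaction was -4.21 ± 0.45 (adjusted p = 5.1e-09). Cthrc1, a secreted protein of collagen-producing fibroblasts, rose by 5.55 in the bursa and 7.56 in the tendon, with an interaction of -2.02 ± 0.49 (adjusted p = 0.0014). The cadherin gene Cdh11 and the surface marker Thy1 were also lower, at -1.81 ± 0.35 (adjusted p = 1.0e-04) and -1.56 ± 0.35 (adjusted p = 6.5e-04). Lrrc15, a marker of contractile, TGF-beta driven fibroblasts, rose by 5.43 in the bursa and 6.77 in the tendon. Its interaction of -1.34 ± 0.84 (adjusted p = 0.22) was not called, and 2 standard errors either side of it span -3.02 to 0.35. Pdpn, the podoplanin gene, was the other member without a call, and it was lower (-0.75, adjusted p = 0.0073) without control bursae 1 and 2. The count of lower members was 7 without control bursa 4 and 5 with the muscle covariate, under which Thy1 stood at -1.01 (adjusted p = 0.064).

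**Figure D3:**
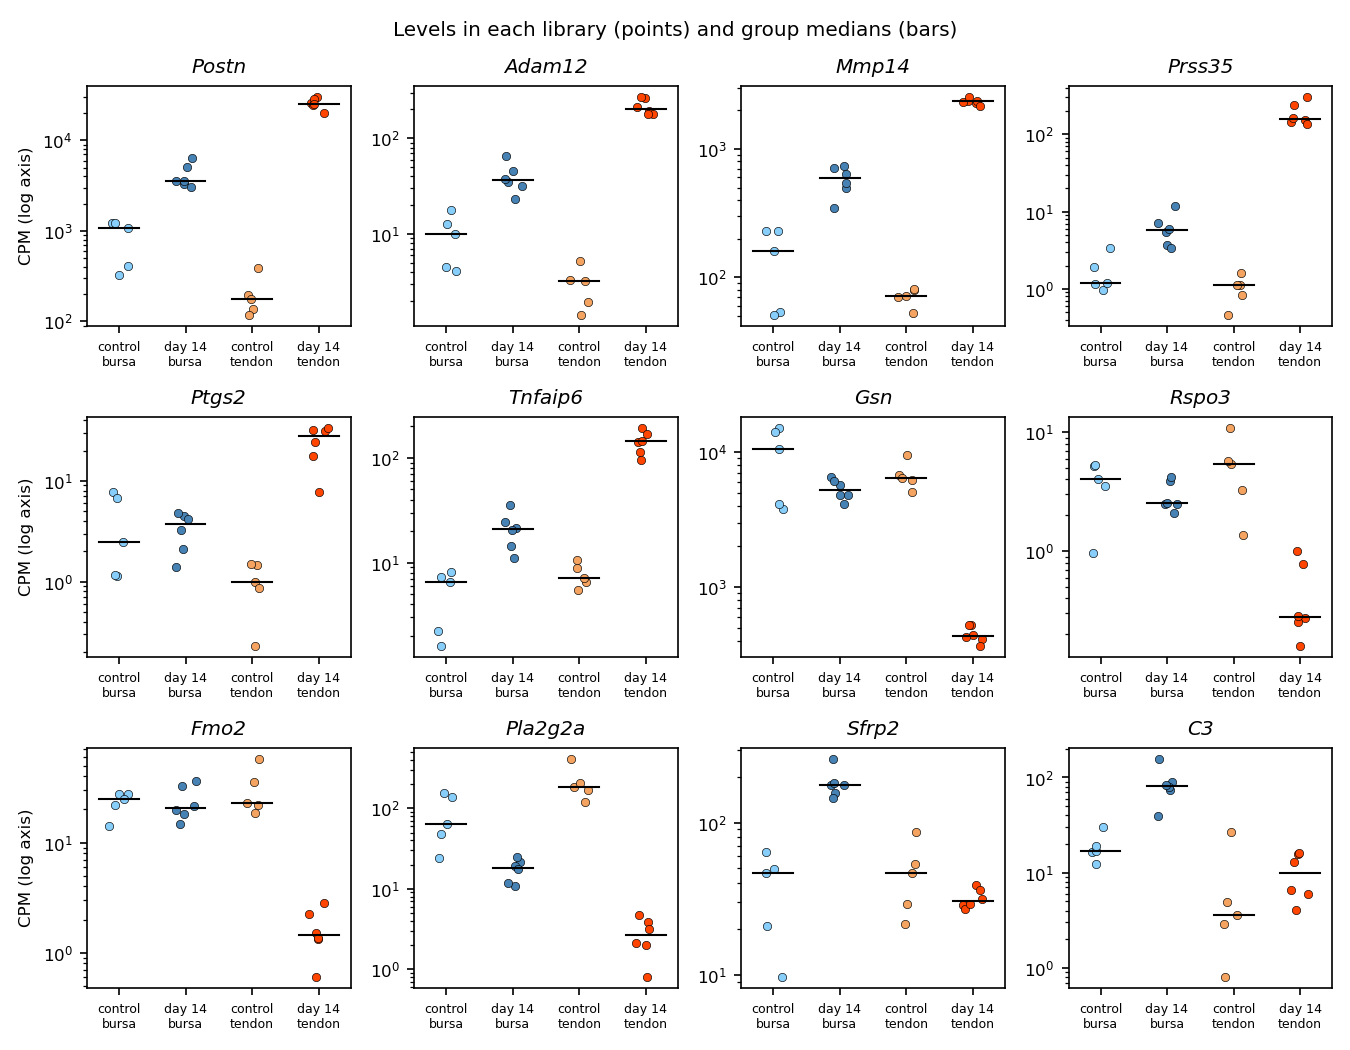
Points are libraries and bars are group medians, in CPM on a log axis, for 12 genes in control bursae, day 14 bursae, control tendons and day 14 tendons with the bursa intact. Postn, Adam12, Mmp14, Prss35, Ptgs2 and Tnfaip6 are highest in day 14 tendons, while Gsn, Rspo3, Fmo2 and Pla2g2a fall there to levels below every day 14 bursa.

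The main fibrillar collagen genes had no called interaction with all libraries. Col1a1, the chain that makes up most tendon collagen, rose by 3.34 ± 0.44 in the bursa and 3.16 ± 0.44 in the tendon, an interaction of 0.18 ± 0.56 (adjusted p = 0.83) with a span of -0.93 to 1.29 at 2 standard errors. Its levels were 271, 169.8, 1857, 2996 and 2078 CPM in control bursae 1 to 5 and 10749 to 19309 (median 15177) CPM in day 14 bursae. Control tendons had 1923, 3239, 4694, 4363 and 9313 CPM and day 14 tendons 33224 to 51475 (median 42584) CPM. Control groups overlapped, and the day 14 groups lay above them without overlap in either tissue. Col3a1, the early scar collagen, had an interaction of -0.67 ± 0.46 (adjusted p = 0.26) with all libraries and was lower without control bursae 1 and 2 (-1.24, adjusted p = 5.6e-05). Chains that regulate fibril size and surface were lower: Col5a1 at -1.86 ± 0.45 (adjusted p = 0.0013), Col5a3 at -2.93 ± 0.45 (adjusted p = 4.1e-06) and Col12a1 at -2.48 ± 0.57 (adjusted p = 7.8e-04). Tnc, which encodes the matricellular protein tenascin C, was also lower at -2.31 ± 0.78 (adjusted p = 0.020), a call that was lost without control bursa 4 (-0.82, adjusted p = 0.35). Over the fibrous matrix list, 13 of 14 tested members rose in the bursa and 14 in the tendon, against 13.3 and 31.7% of all features. The interaction was lower in 8, against 19.0% of all features, and higher in none. That count was 12 without control bursae 1 and 2, 5 without control bursa 4 and 2 with the muscle covariate, under which the calls of Col12a1 (-1.68), Col5a1 (-0.95) and Tnc (-0.42) were lost.

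Genes of collagen modification, folding and cross-linking were more often lower than higher. Of 17 tested members, 13 rose in the bursa and 15 in the tendon, and the interaction was lower in 10 and higher in 1, against 19.0 and 15.1% of all features. Without control bursae 1 and 2, 8 rose and 2 fell in the bursa. The lysyl hydroxylase genes Plod1, which acts on collagen helices, and Plod3 were lower at -1.23 ± 0.15 (adjusted p = 1.1e-07) and -1.29 ± 0.20 (adjusted p = 4.0e-06). Plod2, the third of them, was at -1.58 ± 0.60 (adjusted p = 0.037), and without control bursa 4 at -0.38 (adjusted p = 0.57). Serpinh1, the collagen chaperone, was at -1.16 ± 0.28 (adjusted p = 0.0014) and Loxl2, a lysyl oxidase, at -1.78 ± 0.31 (adjusted p = 2.8e-05). Prolyl 4-hydroxylase genes P4ha1 and P4ha2, which hydroxylate collagen chains, were not called, with spans at 2 standard errors of -0.36 to 0.58 and -0.67 to 0.42. The 1 member that was higher, Loxl4, fell by 1.97 in the tendon. With the muscle covariate 4 members were lower, and the calls of Plod2 (-0.21) and Serpinh1 (-0.71) were lost. For Lox, which has no matched transcripts here, the authors' deposited table gives a bursa change of 2.66 ± 0.38 and a tendon change of 2.85 ± 0.40, with the sign turned. The deposited changes have the opposite sign, as control over injured. Over all matched features they correlated with the changes of the model at -0.998 in the bursa and -0.986 in the tendon, and each is given here with its sign turned to day 14 over control.

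The small leucine-rich proteoglycans, which coat collagen fibrils, moved apart from each other. Lum (lumican) was lower at -1.49 ± 0.36 (adjusted p = 0.0014), with 606 to 1222 (median 920.1) CPM in day 14 bursae and 5013 to 6694 (median 5646) CPM in day 14 tendons. Ogn (osteoglycin) was lower at -2.63 ± 0.48 (adjusted p = 5.5e-05) and Aspn (asporin) at -1.80 ± 0.43 (adjusted p = 0.0013). Dcn (decorin) was the member called higher, at 1.32 ± 0.38 (adjusted p = 0.0073). It fell by 0.93 in the tendon, and its bursa change was 0.39 ± 0.27 without a call. With the muscle covariate the calls of Aspn (-1.11) and Lum (-0.78) were lost. Podnl1 was lower at -4.36 ± 0.78 (adjusted p = 3.7e-05), from levels under 1 CPM in most controls. Among elastic fibre genes 5 of 17 were lower and 3 higher, against 19.0 and 15.1% of all features. Without control bursa 4 those counts were 2 and 6, with the muscle covariate 1 and 6, and 8 were lower without control bursae 1 and 2. Fbn2, the fibrillin of growing tissue, was lower at -2.22 ± 0.81 (adjusted p = 0.030) and stood at -0.83 (adjusted p = 0.52) without control bursa 4. Fbln1, the fibulin 1 gene, was higher at 2.45 ± 0.55 (adjusted p = 6.6e-04). Eln, the elastin gene, rose in both tissues, and its interaction of 0.61 ± 0.49 (adjusted p = 0.36) became higher (1.16, adjusted p = 0.047) without control bursa 4.

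Matrix protease genes rose further in the tendon. Of 18 tested members, 11 rose in the bursa and 16 in the tendon, against 13.3 and 31.7% of all features, with medians of 1.11 and 2.87. The interaction was lower in 9, against 19.0% of all features, and higher in none. That count was 9 each time 1 library was left out, 11 without control bursae 1 and 2 and 9 with the muscle covariate. Mmp14, the membrane-bound collagenase that activates Mmp2, stood at 53.4, 50.4, 159, 228 and 231 CPM in control bursae 1 to 5 and 347 to 742 (median 592) CPM in day 14 bursae. Control tendons had 52.3 to 81.7 (median 71.0) CPM and day 14 tendons 2171 to 2541 (median 2354) CPM, and the 6 injured tendons lay above every other library. Its interaction was -3.05 ± 0.38 (adjusted p = 8.5e-08), and that of Mmp2 was -2.04 ± 0.41 (adjusted p = 1.7e-04). The aggrecanase gene Adamts4 rose by 3.02 in the tendon, changed by -0.06 ± 0.38 in the bursa without a call, and had an interaction of -3.09 ± 0.57 (adjusted p = 5.7e-05). Mmp13, a collagenase, was at 0 CPM in 4 of 5 control bursae and 4 of 5 control tendons and stood at 14.1 to 35.2 (median 25.9) CPM in day 14 tendons against 0 to 0.933 (median 0.328) in day 14 bursae. Every day 14 tendon lay above every day 14 bursa. Its interaction was not called with edgeR (adjusted p = 0.36) and was called lower with DESeq2 (adjusted p = 0.0030), and at levels this close to 0 the fitted value depends on the prior count.

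Inhibitors of these proteases were called in both directions. Of 10 tested, 4 were lower and 3 higher, against 19.0 and 15.1% of all features. Among the lower were the serine protease inhibitor gene Serpine2 at -0.81 ± 0.21 (adjusted p = 0.0027) and the metalloprotease inhibitor gene Timp2 at -1.40 ± 0.32 (adjusted p = 7.2e-04). Timp4, the cysteine protease inhibitor gene Cst3 and Reck, a membrane-bound metalloprotease inhibitor, were higher, with Timp4 at 2.15 ± 0.49 (adjusted p = 7.1e-04) and Cst3 at 0.98 ± 0.28 (adjusted p = 0.0066). Reck, at 0.90 ± 0.34 (adjusted p = 0.038), lost its call without control bursae 1 and 2 (0.48, adjusted p = 0.14), and Timp1, at -0.98 ± 0.36 (adjusted p = 0.031), without control bursa 4 (-0.78, adjusted p = 0.091). With the muscle covariate none of the list was lower, and the calls of Serpine2 (-0.44), Timp1 (-0.15) and Timp2 (-0.81) were lost. Of 12 tested synovial lining and lubrication genes, 3 were lower and 1 higher, against 19.0 and 15.1% of all features, with a median interaction of 0.12. The lower ones included the hyaluronan genes Tnfaip6 and Cemip. Tnfaip6, whose product acts on hyaluronan in inflamed tissue, was at -2.23 ± 0.49 (adjusted p = 4.9e-04). Cemip, which is needed to degrade hyaluronan, was at -3.06 ± 0.83 (adjusted p = 0.0040) with all libraries and at -0.01 (adjusted p = 1.0) without control bursa 4. Prg4, the lubricin gene, fell by 1.40 in the bursa and 1.66 in the tendon. Its bursa change was -0.03 (adjusted p = 0.98) without control bursa 4, and its interaction went from 0.25 ± 0.71 (adjusted p = 0.82) to 1.63 (adjusted p = 0.033).

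Several genes with the lowest interactions belonged to none of these lists. Prss35, a serine protease-like gene, stood at 1.14, 0.970, 1.20, 3.39 and 1.94 CPM in control bursae 1 to 5 and 3.39 to 11.6 (median 5.72) CPM in day 14 bursae. Control tendons had 0.840, 1.11, 1.58, 1.13 and 0.454 CPM and day 14 tendons 135 to 304 (median 157) CPM. The control groups overlapped, both day 14 groups lay above them, and every injured tendon lay above every injured bursa. The interaction was -5.69 ± 0.56 (adjusted p = 9.2e-10). Cpxm1, a carboxypeptidase-like gene, had 66.6 to 85.2 (median 74.8) CPM in day 14 bursae and 117 to 194 (median 142) CPM in day 14 tendons, from 5.97 to 27.1 (median 17.0) and 0.305 to 2.34 (median 0.799) CPM in the controls. The bursa went from 3.68 above the tendon to 0.98 below it on the log2 scale, and the interaction was -4.66 ± 0.52 (adjusted p = 1.3e-08). The Fc receptor-like gene Fcrl2 and the paired-box factor gene Pax1 rose in both tissues, with interactions of -4.34 ± 0.51 (adjusted p = 3.0e-08) and -4.29 ± 0.74 (adjusted p = 2.1e-05). The bursa change of Pax1 was 0.97 (adjusted p = 0.17) without control bursae 1 and 2. LOC108348074 was at 0 in all 5 control tendons and at 42.1, 32.2, 52.1, 0, 17.6 and 26.4 CPM in day 14 tendons 1 to 6, so 1 injured tendon also lacked it and the others varied widely. Their mean was at least 114-fold higher than the floor of 3 counts per library. In the bursa it stood at 1.36 to 76.4 (median 49.3) CPM in controls and 16.9 to 109 (median 83.1) CPM at day 14, with no call. Its interaction was called with all libraries and lost that call with the muscle covariate (adjusted p = 0.10), and the fitted value is no bound.

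Among genes of acute inflammation Ptgs2, Il1b and S100a9 were lower, while Il6 and Ccl2 had no call. Ptgs2, the inducible cyclooxygenase, stood at 1.14, 1.16, 2.50, 7.80 and 6.71 CPM in control bursae 1 to 5 and 1.40 to 4.85 (median 3.72) CPM in day 14 bursae, which overlapped. In tendons it went from 0.227 to 1.51 (median 0.983) to 7.84 to 33.5 (median 27.7) CPM without overlap, and the interaction was -4.78 ± 0.88 (adjusted p = 5.7e-05). Il1b rose in both tissues, by 1.59 and 3.63, with an interaction of -2.04 ± 0.58 (adjusted p = 0.0056), at levels of at most 5.67 CPM in any day 14 library. Il6 was under 1 CPM in most libraries and had no call. Ccl2, a monocyte attractant, was at 0.03 ± 0.70 (adjusted p = 0.98). With the muscle covariate Il1b stood at -1.75 (adjusted p = 0.051), and with a spread per group Ptgs2 and Il1b lost their calls, at -4.64 and -1.94. Of 17 tested immediate early genes, 3 were lower and 1 higher, against 19.0 and 15.1% of all features, and 4 rose and 4 fell in the tendon. Without control bursae 1 and 2, 5 were lower, and with the muscle covariate 1 rose in the tendon. The nuclear receptor gene Nr4a2, an early response gene, rose by 2.06 in the tendon and was lower at -2.33 ± 0.32 (adjusted p = 6.2e-07). The neutrophil gene S100a9 was lower at -2.72 ± 0.70 (adjusted p = 0.0026), from levels of at most 2.23 CPM. It was the 1 member called among 4 tested neutrophil genes. Deposited changes of unmatched members, with the sign turned, went both ways. Mpo was at -1.19 in the bursa and -4.51 in the tendon, and Cxcr2 at -0.87 and 0.79. Their tissue differences were not tested.

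Cell division genes rose in both tissues and further in the tendon. Of 24 tested members 19 rose in the bursa (median 1.15) and 22 in the tendon (median 2.48), against 13.3 and 31.7% of all features. The interaction was lower in 13 and higher in 1, against 19.0 and 15.1% of all features. Mki67, the proliferation marker, stood at 13.2 to 28.6 (median 16.7) CPM in day 14 bursae and 37.2 to 47.9 (median 45.0) CPM in day 14 tendons, and its interaction of -0.78 ± 0.32 (adjusted p = 0.059) was not called with all libraries but was lower without control bursae 1 and 2 (-1.09, adjusted p = 0.0024). Rrm2, which makes deoxynucleotides, was lower at -1.72 ± 0.53 (adjusted p = 0.011), without a call with the muscle covariate (-1.22, adjusted p = 0.14). The list's lower count was 20 without control bursae 1 and 2, 3 with the muscle covariate and 1 when each group had its own spread. Of 18 lysosomal genes 12 rose in the bursa and 16 in the tendon, with medians of 0.42 and 0.69. A lower interaction was called in 8 of them, against 19.0% of all features. Among them were the collagen-degrading cathepsin Ctsk at -1.76 ± 0.36 (adjusted p = 2.3e-04) and Ctsb at -1.23 ± 0.17 (adjusted p = 6.8e-07). Ctsk lost its call with the muscle covariate (adjusted p = 0.057). The acid phosphatase gene Acp5, carried by osteoclasts and some macrophages, was lower at -2.28 ± 0.22 (adjusted p = 3.5e-10). Day 14 bursae, at 21.8 to 26.1 (median 24.6) CPM, overlapped control bursae, at 17.4 to 27.2 (median 22.5) CPM. Day 14 tendons, at 26.1 to 35.1 (median 32.8) CPM, lay above control tendons, at 4.27 to 7.68 (median 5.57) CPM, without overlap. Secretory pathway genes were lower in 6 of 17 and higher in 2, against 19.0 and 15.1% of all features, with 12 lower without control bursae 1 and 2, 13 without control tendon 5 and 1 with the muscle covariate.

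Another large set fell in the tendon and fell less, or was not called, in the bursa. Gsn, the actin-severing protein gelsolin, stood at 3771, 4126, 10573, 15083 and 14113 CPM in control bursae 1 to 5 and 4126 to 6487 (median 5242) CPM in day 14 bursae. In tendons it went from 5071 to 9434 (median 6429) to 363 to 527 (median 434) CPM. Control bursae 1 and 2 lay below the other 3 control bursae, and the injured tendons lay below every other library. Gsn fell by 0.84 in the bursa, a call lost without control bursa 4 (-0.61, adjusted p = 0.068), and by 3.92 in the tendon, and the interaction was 3.08 ± 0.37 (adjusted p = 4.6e-08).

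Pla2g2a, a secreted phospholipase, fell in both tissues, by 2.29 in the bursa and 6.33 in the tendon, and stood at 10.9 to 24.6 (median 18.3) against 0.792 to 4.66 (median 2.64) CPM at day 14. Its interaction was 4.04 ± 0.59 (adjusted p = 1.5e-06), and that of its relative Pla2g5 was 3.88 ± 0.49 (adjusted p = 1.1e-07). The oxidoreductase genes Fmo2 and Aldh3a1 fell in the tendon, by 4.26 and 4.16, and their bursa changes of 0.04 and 0.10 were not called. Their interactions were 4.30 ± 0.56 (adjusted p = 2.2e-07) and 4.26 ± 0.68 (adjusted p = 7.1e-06). Serpinb7 went from 3.89 to 25.2 (median 12.2) CPM in control tendons to 0 to 0.128 (median 0.0216) in day 14 tendons and stayed under 1 CPM in all bursae, so its interaction of 7.02 ± 1.26 (adjusted p = 3.8e-05) rests on the tendon. Mal, a myelin and lymphocyte membrane protein gene, was higher at 2.74 ± 0.35 (adjusted p = 1.8e-07). Angptl7, an angiopoietin-like secreted protein of dense connective tissue, went from 127 to 451 (median 297) to 8.23 to 38.9 (median 10.7) CPM in tendons and had an interaction of 3.98 ± 0.97 (adjusted p = 0.0014).

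Transforming growth factor beta (TGF-beta) and bone morphogenetic protein (BMP) signalling genes were called in both directions. Of 23 tested TGF-beta and BMP signalling genes, 7 were higher and 5 lower, against 15.1 and 19.0% of all features. Higher members included the inhibitor Fst, the ligands Bmp2, Bmp4 and Bmp5, the coreceptor Tgfbr3 and the transducer Smad3. The interaction of Fst, the follistatin gene, was 2.08 ± 0.39 (adjusted p = 6.1e-05) and that of Bmp4 was 1.73 ± 0.34 (adjusted p = 1.3e-04). Bmp5 lost its call without control bursae 1 and 2 (0.53, adjusted p = 0.14). Lower members were the activin subunit genes Inhba and Inhbb, the receptor Tgfbr1, the target Tgfbi and the feedback regulator Skil. Without control bursa 4 the lower count was 3, with Inhba at -0.61 (adjusted p = 0.29) and Tgfbi at -1.01 (adjusted p = 0.053). With the muscle covariate 1 was lower, and Inhba (-0.36), Inhbb (-1.01), Smad3 (0.39), Tgfbi (-0.73) and Tgfbr1 (-0.34) lost their calls, while Skil, at -0.92 ± 0.20 (adjusted p = 3.9e-04), kept its own. The ligands Tgfb1 and Tgfb3 rose in both tissues, with spans at 2 standard errors of -0.61 to 0.21 and -0.74 to 0.46 and no call. Tgfb1 was lower without control bursae 1 and 2 (-0.47, adjusted p = 0.013).

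Wnt genes were called in both directions. Of 21 tested Wnt genes and secreted modulators, 5 were higher and 3 lower, against 15.1 and 19.0% of all features, with a median interaction of -0.03, and 8 were higher without control bursa 4. Sfrp2, a Wnt-binding protein of fibroblasts, stood at 20.8, 9.60, 46.4, 49.9 and 63.7 CPM in control bursae 1 to 5 and 144 to 262 (median 176) CPM in day 14 bursae, without overlap. In tendons it stood at 21.5 to 87.0 (median 46.5) and 27.1 to 38.6 (median 30.5) CPM, which overlapped, and the interaction was 2.83 ± 0.44 (adjusted p = 4.9e-06). Rspo3, which strengthens Wnt signals, fell by 3.51 in the tendon and was higher at 3.14 ± 0.59 (adjusted p = 7.6e-05). Frzb, Dkk2 and Sfrp5, which bind Wnt proteins or their receptors, were higher too. The ligand gene Wnt5a was lower at -1.63 ± 0.33 (adjusted p = 1.6e-04). Of 9 tested genes of the insulin-like growth factor axis, 3 were lower and 0 higher, against 19.0 and 15.1% of all features. The lower members were Igfbp3, Igfbp4 and Htra1, with Igfbp4 at -2.02 ± 0.28 (adjusted p = 5.7e-07). Htra1 (-0.83) and Igfbp3 (-0.66) lost their calls with the muscle covariate. For Igf1 itself the authors' deposited table gives, with the sign turned, a change of 4.01 ± 0.15 in the tendon and 0.28 ± 0.31 in the bursa, and the difference between them was not tested here.

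Of 11 tested tendon cell genes, 2 were higher and 0 lower, against 15.1 and 19.0% of all features. Scx and Mkx, the transcription factors that set tendon fate, had no call, with spans at 2 standard errors of -1.91 to 0.80 and 0.06 to 2.37, nor had Tnmd, the tenomodulin gene (-2.22 to 0.57). Mkx was called higher without day 14 bursa 1 (1.4, adjusted p = 0.046) and without day 14 tendon 2 (1.47, adjusted p = 0.046). Levels of Scx were 1.04 to 12.5 (median 2.93) CPM in day 14 bursae and 57.8 to 83.6 (median 70.2) CPM in day 14 tendons. Chad, the chondroadherin gene of cartilage and tendon, stood at 2.02, 0.0970, 1.35, 229 and 1.14 CPM in control bursae 1 to 5 and 0.252 to 6.29 (median 1.03) CPM in day 14 bursae. In tendons it went from 406 to 1851 (median 1197) to 4.46 to 19.7 (median 7.32) CPM without overlap. The bursa fall of 4.72 rests on control bursa 4. Without it the bursa change was 0.58 (adjusted p = 0.63), and the interaction, not called at first, was 7.46 (adjusted p = 8.0e-07). Cilp, a cartilage intermediate-layer protein gene, was higher at 2.89 ± 0.45 (adjusted p = 4.8e-06). It rose by 1.44 in the bursa and fell by 1.45 in the tendon. With Angptl7 it made up the 2 calls among 11 tested tendon genes, and without control bursa 4, whose own tendon gene level was high, 6 were higher. Of 11 tested cartilage genes, 7 fell in the bursa and 7 in the tendon, with medians of -2.20 and -2.65. Of all features, 13.2% fell in the bursa, 29.9% fell in the tendon and 15.1% had a higher interaction. The cartilage list moved with control bursa 4. Of its members, 7 of 11 fell in the bursa with it, 1 without it and 2 with the muscle covariate, and the interaction was higher in 1 and 4 members respectively.

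Muscle genes fell in the tendon. All 19 tested members fell in the tendon, while 1 fell in the bursa (median -0.03), and the interaction was higher in 13, with a median of 2.93. Of all features, 29.9% fell in the tendon, 13.2% fell in the bursa and 15.1% had a higher interaction. Ckm, muscle creatine kinase, stood at 9018, 7962, 6014, 10227 and 8405 CPM in control tendons 1 to 5, 299 to 1247 (median 1029.6) CPM in day 14 tendons and 244 to 1925 (median 947) CPM in day 14 bursae. Control bursae 1 to 5 had 4276, 646, 498, 123 and 350.4 CPM, all below the control tendons, with a wide spread. The interaction of Ckm was 3.05 ± 1.14 (adjusted p = 0.035). It lost its call in 9 of the single leave-outs and turned to -0.45 with the muscle covariate, to which Ckm itself contributes. The list's higher count ran from 5 (without control bursa 3 or 5) to 18 as single libraries were left out, and was 19 without control bursae 1 and 2. With the muscle covariate it was 0, and 2 fell in the tendon. That covariate is the mean level of these same 19 genes, so both counts are largely built in and give no check of the list. Myh3, embryonic myosin, which marks new or regenerating fibres, rose in the bursa from 0.291 to 2.90 (median 0.699) to 6.86 to 42.1 (median 18.2) CPM and stood at 121 to 242 (median 190.0) and 20.3 to 79.4 (median 45.8) CPM in tendons, with an interaction of 6.20 ± 1.49 (adjusted p = 0.0013) and no call with the muscle covariate (2.75, adjusted p = 0.18). Pitx1, a homeodomain transcription factor gene, was at 0 in all control bursae and in 3 of 6 day 14 bursae and fell in tendons from a median of 19.7 to one of 2.11 CPM, without overlap. Mitochondrial gene counts moved with 2 libraries. Of 19 nuclear respiratory chain genes 16 fell in the bursa (median -0.99) and all 19 in the tendon (median -1.74), against 13.2 and 29.9% of all features. The interaction was higher in 1, against 15.1% of all features. When control bursae 1 and 2 were left out, 6 rose and 0 fell in the bursa, and the interaction was higher in 19.

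More fat and nerve genes fell in the tendon than in the bursa. Of 10 adipocyte genes 9 fell in the tendon and 2 in the bursa, and 6 were higher, against 29.9, 13.2 and 15.1% of all features. Plin1, which coats the lipid droplet, stood at 1338 to 2333 (median 1809.5) CPM in control and 795 to 1220.2 (median 1070.1) CPM in day 14 bursae, but at 4.20 to 60.9 (median 7.72) and 0.788 to 2.67 (median 1.25) CPM in tendons. Control tendons lay far below control bursae before injury. The interaction was 3.10 ± 1.00 (adjusted p = 0.014), and that of Pck1, a glyceroneogenesis enzyme gene, was 4.34 ± 1.26 (adjusted p = 0.0070). Counts of Plin1 matched its deposited values within 5 percent only. Without control tendon 3, Plin1 (2.24) and Sox10 (0.98) lost their calls, and 3 adipocyte genes and 3 Schwann cell genes were higher. With the muscle covariate 1 adipocyte gene was higher and 5 fell in the bursa, and with a spread per group 2. Of 10 Schwann cell genes 7 fell in the tendon and 1 in the bursa, and 5 were higher, among them the lineage factor gene Sox10 at 1.35 ± 0.41 (adjusted p = 0.010). Sox10 stood at 0.65 (adjusted p = 0.22) with bursa-removed tendons in place of intact ones, and 3 Schwann cell genes were higher without control bursae 1 and 2. Prox1, the lymphatic identity factor, rose by 0.75 in the bursa and fell by 1.56 in the tendon, an interaction of 2.31 ± 0.37 (adjusted p = 5.9e-06), and Mmrn1 and Lyve1 were also higher. Without control bursae 1 and 2 the bursa change of Prox1 was 0.54 (adjusted p = 0.22). Of 6 tested lymphatic endothelium genes, 3 were higher and 0 lower. Of 16 tested blood endothelium genes, 1 was higher and 1 lower, with a median interaction of 0.07. Of all features, 15.1% were higher and 19.0% lower.

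**Figure D4:**
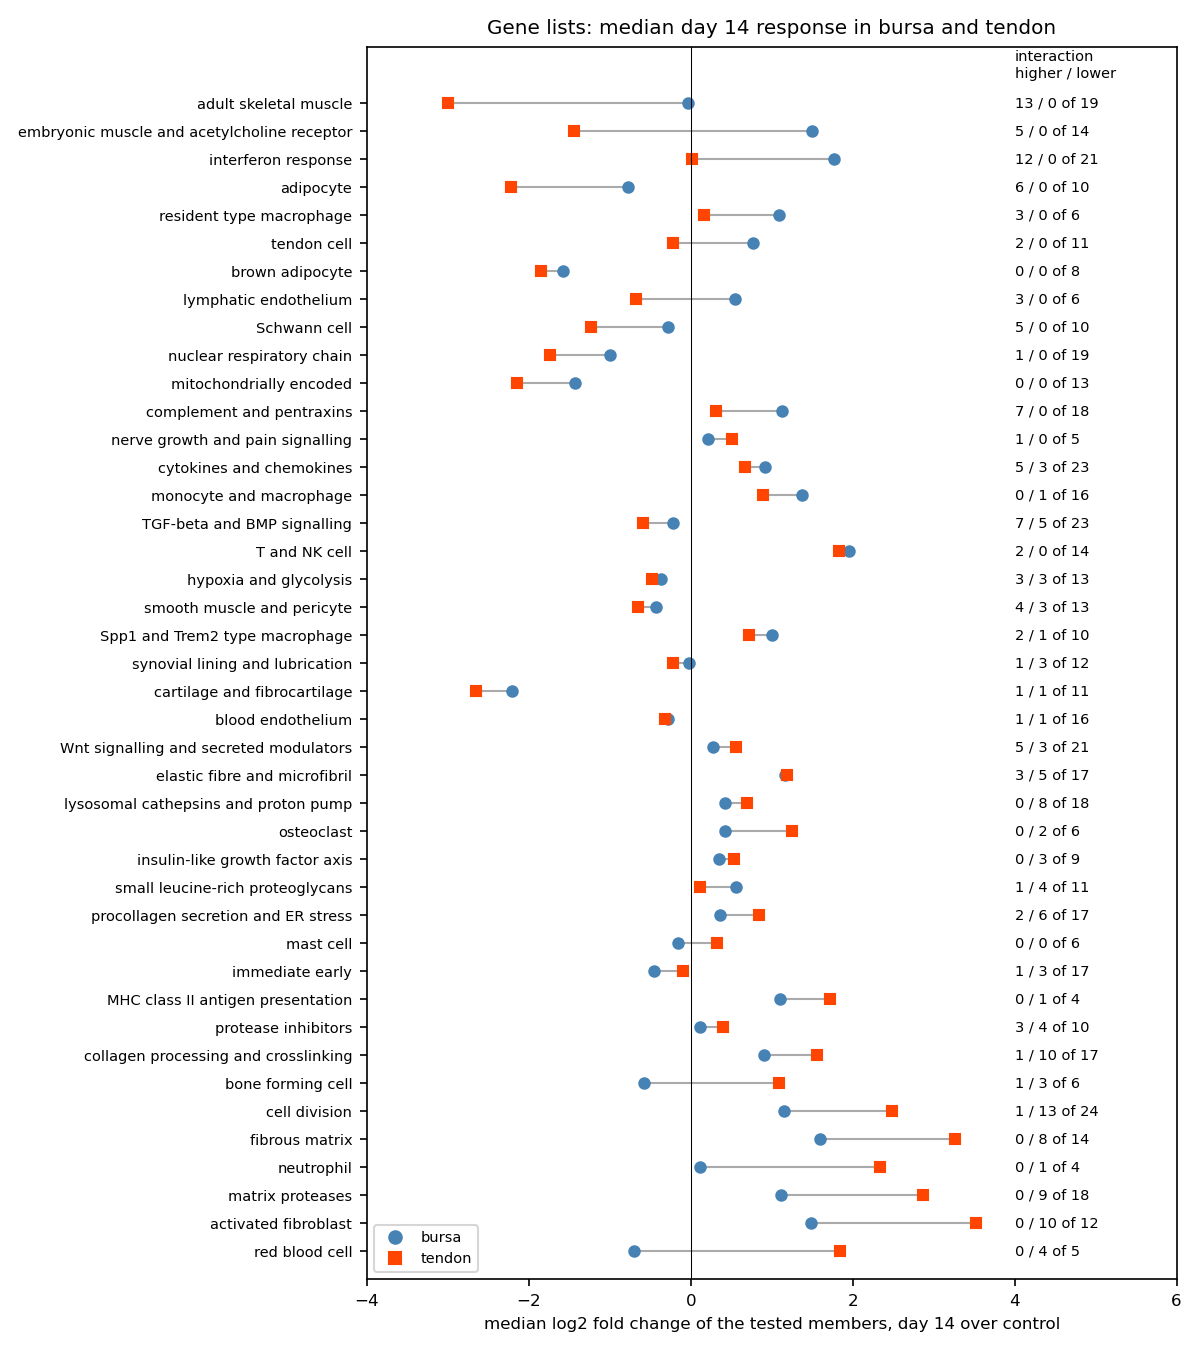
For each gene list with at least 4 tested members, the circle marks the median log2 fold change (day 14 over control) in the bursa and the square that in the tendon, with lists ordered by their median interaction. The numbers at the right count members whose interaction was called higher or lower. Activated fibroblast, protease and matrix lists sit furthest right in the tendon, and the muscle and cartilage lists furthest left.

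Most monocyte, macrophage, T and NK cell genes rose in both tissues, and few of them had a called interaction. Of all features, 13.3% rose in the bursa and 31.7% in the tendon, and the interaction was higher in 15.1 and lower in 19.0%. Of 16 monocyte and macrophage genes, 15 rose in the bursa and 13 in the tendon, and the interaction was lower in 1 and higher in none, with a median of 0.45. The tendon count was 8 with the muscle covariate. The lower member was Adgre1, the F4/80 antigen, at -1.02 ± 0.31 (adjusted p = 0.0091), without a call with the muscle covariate (-0.84, adjusted p = 0.091). Of 14 T and NK cell genes 12 rose in the bursa and 12 in the tendon, and the interaction was higher in 2, Klrd1 and the perforin gene Prf1. Prf1 stood at 1.29 to 4.56 (median 2.02) CPM in control and 5.21 to 14.6 (median 9.21) CPM in day 14 bursae, and at 0.829 to 1.53 (median 1.04) and 0.506 to 0.996 (median 0.866) CPM in tendons, with an interaction of 2.47 ± 0.43 (adjusted p = 2.6e-05). Bursa groups did not overlap, tendon groups did. Of 4 neutrophil genes 1 rose in the bursa and 3 in the tendon, of 6 mast cell genes 0 and 1, and neither of the 2 tested B cell genes was called in either tissue. Of 6 resident-type macrophage genes 5 rose in the bursa (2 without control bursae 1 and 2), 1 rose and 2 fell in the tendon, and 3 had a higher interaction. Of these, Lyve1 and F13a1 were higher at 1.82 ± 0.37 (adjusted p = 1.8e-04) and 1.56 ± 0.43 (adjusted p = 0.0043), as was Vsig4, which was under 1 CPM in nearly every library.

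Complement genes were higher in 7 of 18 and lower in none, against 15.1% of all features. In the bursa 15 of 18 members rose, and 7 rose and 4 fell in the tendon. C3, the central complement component, stood at 16.4, 30.4, 12.2, 16.9 and 19.2 CPM in control bursae 1 to 5 and 39.4 to 157 (median 82.1) CPM in day 14 bursae, without overlap. In tendons it stood at 0.795 to 26.6 (median 3.59) and 4.09 to 16.2 (median 9.86) CPM, with overlap, and the interaction was 1.81 ± 0.66 (adjusted p = 0.030). It was 0.49 without control tendon 3 and lost its call in 4 of the single leave-outs. Near-identical copies C4a and C4b, whose reads may be shared between them, were at 2.44 ± 0.42 (adjusted p = 2.0e-05) and 2.59 ± 0.49 (adjusted p = 8.1e-05). Serping1, the C1 inhibitor, rose by 1.14 in the bursa, fell by 0.58 in the tendon and was higher at 1.72 ± 0.33 (adjusted p = 1.0e-04). For Cfb, complement factor B, the authors' deposited table gives, with the sign turned, 2.29 ± 0.38 in the bursa and -1.63 ± 0.31 in the tendon. The complement count was 6 without control bursae 1 and 2 and 9 with the muscle covariate, and 10 members rose in the bursa and 3 in the tendon under these settings in turn.

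Of 23 cytokines and chemokines, 5 were higher (Ccl11, Ccl19, Cxcl9, Cxcl10 and Cxcl13) and 3 lower (Il1b, Lif and Ptgs2), against 15.1 and 19.0% of all features. Cxcl9, which draws T cells, stood at 10.6, 23.3, 26.6, 18.7 and 35.5 CPM in control bursae 1 to 5 and 45.2 to 367 (median 91.7) CPM in day 14 bursae, against at most 5.95 CPM in any tendon, and its interaction was 2.89 ± 0.52 (adjusted p = 4.3e-05). Cxcl13, a B cell attractant, rose by 1.83 in the bursa and fell by 2.08 in the tendon, an interaction of 3.91 ± 0.78 (adjusted p = 1.5e-04). Its bursa change was 0.97 (adjusted p = 0.15) without day 14 bursa 6 and 1.36 (adjusted p = 0.14) without control bursae 1 and 2.

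Interferon response genes were higher in 12 of 21 and lower in none with all libraries, against 15.1 and 19.0% of all features. They were higher in 3 without day 14 bursa 6 and in 4 with the muscle covariate. Mx1, an antiviral GTPase, stood at 14.1, 18.0, 9.37, 37.3, 46.8 and 1456 CPM in day 14 bursae 1 to 6, and the sixth stood far above the other 5. Ifit3 stood at 5.60, 6.27, 9.66, 18.2, 11.9 and 408 CPM and Cxcl10 at 2.57, 3.08, 1.98, 5.40, 2.74 and 241 CPM, again highest in the sixth. In tendons Mx1 stood at 1.53 to 4.01 (median 3.26) CPM in controls and 1.70 to 14.5 (median 3.12) CPM at day 14. Without day 14 bursa 6, 1 instead of 19 rose in the bursa, and the median interaction went from 2.01 to 0.29. The interaction of Mx1 then stood at 0.45 (adjusted p = 0.72), that of Ifit3 at 0.82 (adjusted p = 0.22) and that of Cxcl10 at 0.77 (adjusted p = 0.50), while Irf7, the factor that amplifies interferon production, was still called at 1.34 (adjusted p = 0.048). With a spread per group 1 member was higher. The same library was the deepest of the 22, and a link between its depth and these levels was not tested. Promoters of interferon response genes often carry binding sites for the factors that interferon activates, and some are shown here because these genes were high together in 1 library. RefSeq promoters (GRCr8, 250 bases before to 50 after the start) were matched for 15 of 21 tested members, and 11 (73.3%) held GAAANNGAAA on either strand, against 3.92% of all 33469 promoters. A match describes these letters and shows neither binding nor a cause. The matched bases with up to 20 bases on each side, in the direction of the gene, are given with the match in capitals (read on the other strand where it begins with TTTC).
Irf7: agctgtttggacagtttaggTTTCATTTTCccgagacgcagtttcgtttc
Ifit3: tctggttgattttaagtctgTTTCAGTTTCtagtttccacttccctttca
Cxcl10: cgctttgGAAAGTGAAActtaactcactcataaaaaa
Gbp2: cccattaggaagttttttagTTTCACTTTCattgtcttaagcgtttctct
Isg20: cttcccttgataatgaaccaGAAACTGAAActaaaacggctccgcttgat
Ifih1: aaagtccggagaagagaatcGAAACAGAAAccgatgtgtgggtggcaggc
They lie at chr1:205800063-205800112 on the minus strand (Irf7), chr1:241527262-241527311 on the plus strand (Ifit3), chr14:15988816-15988852 on the plus strand (Cxcl10), chr2:234005676-234005725 on the plus strand (Gbp2), chr1:142239947-142239996 on the plus strand (Isg20) and chr3:67683998-67684047 on the minus strand (Ifih1).

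Features called in opposite directions in the tissues depended on the libraries that stand apart. Of the 181 that fell in the bursa and rose in the tendon, 74 were so called without control bursae 1 and 2, 161 without control bursa 4 and 140 without day 14 bursa 6. Of the 82 that rose in the bursa and fell in the tendon, the numbers were 27, 72 and 60. Gnai1, an inhibitory G protein subunit gene, stood at 18.2, 26.4, 84.5, 105 and 109 CPM in control bursae 1 to 5 and 18.2 to 32.4 (median 26.6) CPM in day 14 bursae. In tendons it rose from 6.57 to 12.2 (median 10.7) to 19.8 to 25.2 (median 23.6) CPM. Control bursae 1 and 2 lay among the day 14 bursae and the other 3 far above them, and without the first 2 the bursa change was -1.96 (adjusted p = 1.0e-09). The interaction was -2.65 ± 0.38 (adjusted p = 1.5e-06). Ttpa, the tocopherol transfer protein gene, went the same way, with 6.32, 4.46, 13.9, 13.5 and 14.9 CPM in control bursae 1 to 5, 2.40 to 4.82 (median 3.44) CPM in day 14 bursae and an interaction of -3.30 ± 0.53 (adjusted p = 7.1e-06). Ptprn, a secretory granule gene, stood at 19.6, 18.9, 1.45, 1.08 and 1.27 CPM in control bursae 1 to 5 and 1.43 to 3.62 (median 2.07) CPM in day 14 bursae, so its bursa fall rests on the first 2 controls. Without them its bursa change was 0.78 (adjusted p = 0.25), and that of Tmem86a, which fell with all libraries, was a rise (0.74, adjusted p = 0.048). The interactions of Ptprn and Tmem86a were -5.50 ± 0.78 (adjusted p = 1.1e-06) and -3.44 ± 0.55 (adjusted p = 6.2e-06) with all libraries and stood at -2.77 (adjusted p = 1.8e-04) and -1.62 (adjusted p = 2.1e-04) without them. In the other direction Cmpk2, an interferon-induced nucleotide kinase gene, and Chodl, the chondrolectin gene, rose in the bursa and fell in the tendon, with interactions of 3.69 ± 0.82 (adjusted p = 5.8e-04) and 3.33 ± 0.70 (adjusted p = 3.1e-04). The bursa rise of Cmpk2 was lost without day 14 bursa 6 (-0.24, adjusted p = 0.59) and that of Chodl without control bursae 1 and 2 (1.39, adjusted p = 0.10). The interaction of Chodl was 1.75 (adjusted p = 0.13) with the muscle covariate, and with a spread per group Cmpk2 and Chodl stood at 2.70 (adjusted p = 0.071) and 3.04 (adjusted p = 0.063).

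Red cell genes also went apart. In all, 4 of 5 rose in the tendon, 2 fell in the bursa, and 4 were lower, against 31.7, 13.2 and 19.0% of all features. The count of lower members did not move without the libraries that stand apart or with the muscle covariate. Alas2, the heme enzyme of red cell precursors, stood at 8.07 to 19.6 (median 13.7) and 5.48 to 12.5 (median 7.99) CPM in control and day 14 bursae and at 0 to 0.229 (median 0.123) and 0.779 to 1.86 (median 1.09) CPM in control and day 14 tendons. Its interaction was -3.80 ± 0.60 (adjusted p = 5.6e-06). The globin genes Hba-a1 and Hba-a2 are near-identical copies whose counts were not told apart.

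For some transcripts the tissue with the higher level turned between control and day 14. Uninjured, 5027 features (28.8%) were higher in the bursa and 3801 (21.8%) in the tendon, 50.7% together. At day 14, 4765 (27.3%) were higher in the bursa and 4353 (25.0%) in the tendon, 52.3% together. Tissue differences passed the test at both times in 5415 features. The interaction is the day 14 tissue difference minus the uninjured one, so called differences of opposite sign all but fix its call. Among the 5415, 4720 kept their direction and 695 turned it, and all 695 had a called interaction by this construction. In 476 of them the bursa was above the tendon uninjured and below it at day 14, as for Postn, with tissue differences (bursa over tendon) of 2.07 ± 0.32 uninjured and -2.63 ± 0.30 at day 14. In 219 the order turned the other way, as for Lyve1 (-0.78 ± 0.27 uninjured and 1.04 ± 0.25 at day 14) and Prox1 (-1.37 ± 0.27 and 0.94 ± 0.25). Prf1 was in neither set, since its bursa excess of 1.05 widened to 3.52.

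The interaction at day 3, which shares its controls with that at day 14, was called higher in 1672 features (9.59%) and lower in 2454 (14.1%), 23.7% together. In the difference of the 2 interactions the controls cancel, which leaves the day 3 to day 14 change of the bursa against that of the tendon. This difference was called in 2894 features (16.6%), 1372 higher (7.87%) and 1522 lower (8.73%). The interaction of activated fibroblast genes was lower at day 14 than at day 3 in 10 of 12 members, with a median difference of -1.73. With the muscle covariate it was lower in 10 as well. Prss35 was at -1.45 ± 0.55 (adjusted p = 0.051) at day 3 and moved by -4.24 ± 0.44 (adjusted p = 3.1e-08). Cthrc1 was at 0.16 ± 0.48 (adjusted p = 0.86) and moved by -2.18 ± 0.44 (adjusted p = 5.6e-04). The bone-type alkaline phosphatase gene Alpl moved by -3.97 ± 0.50 (adjusted p = 7.9e-07). The interaction was also lower at day 14 than at day 3 in 9 of 14 fibrous matrix and 7 of 17 collagen processing genes. These counts were 5 and 3 with the muscle covariate, and 13 for collagen processing genes without control bursae 1 and 2. Acp5 and Cilp had interactions at day 3 of -2.30 ± 0.22 (adjusted p = 4.3e-10) and 3.26 ± 0.45 (adjusted p = 1.2e-06), and their moves to day 14 of 0.03 and -0.37 were not called. The interaction was higher at day 14 than at day 3 in 6 of 10 adipocyte genes (4 with the muscle covariate). It was also higher in all 4 tested MHC class II genes (2 without day 14 bursa 6) and in 7 of 14 T and NK cell genes, with Prf1 at 2.68 ± 0.41 (adjusted p = 1.9e-05). The day 14 interaction itself was higher in 0 and lower in 1 of these 4 MHC class II genes, with a median of -0.55. Its lower count ran from 0 to 3 as single libraries were left out. All 4 rose in both tissues at day 14, and the list's other members, of 10 in all, were not tested. For interferon genes the interaction was higher at day 14 than at day 3 in 13 of 21, in 2 without day 14 bursa 6 and in 8 with the muscle covariate.

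**Figure D5:**
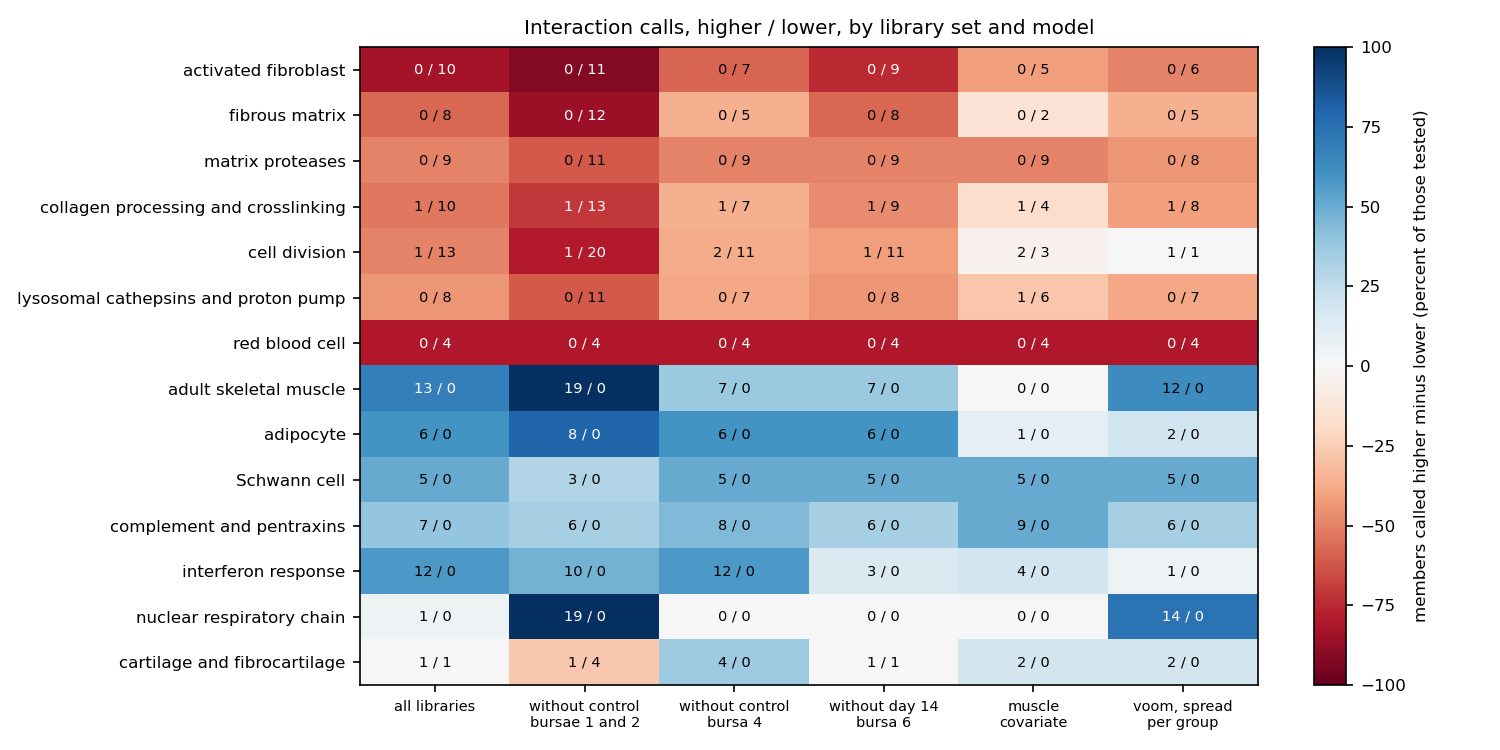
Each cell gives, for a gene list, how many members had an interaction called higher and lower, with all libraries, without the libraries that stand apart, with the muscle level as a covariate, and with limma voom and a spread per group. Colour is the percent of tested members called higher minus lower. Matrix protease and red blood cell counts move little across the columns, whereas interferon, respiratory chain and muscle counts change with single libraries or with the covariate. The covariate is the mean level of the muscle list itself, so that list's count under it is largely built in.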

How the data were processed

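The authors deposited 1 table of estimated counts per transcript for 46 libraries, made with kallisto 0.44.0 after bcl2fastq 2.19, per the submitters' processing notes and the file headers. The genome build and annotation are not stated in the labels or headers. They also deposited 11 tables from DESeq2, which per the file headers hold log2 fold changes with standard errors in log2 units, p-values, a test statistic (a score) and baseMean, a signal scaled by size factors. Their fold changes had the opposite sign to day 14 over control and were turned.

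The count table carries no gene names. Symbols were given to transcripts, alone or in sums of 2 or 3, whose scaled counts matched the deposited means, which named 12993 of 23747 symbols and 14972 of 31715 transcripts with 90.6% of counts. Shifted decoy values gave 24 matches, so about 0.185% of names may be wrong. The rest stayed in as unnamed features.

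After summing per symbol and rounding, features were kept by filterByExpr, TMM factors were taken, and 1 model of all 46 libraries in 8 groups was fitted in R 4.3.3 with edgeR 4.0.16 (robust quasi-likelihood), with Benjamini-Hochberg adjustment over 17429 features. A standard error is the log2 fold change over the root of its F statistic. On simulated data 54 of 100 planted 2-fold and 88 of 100 planted 4-fold interactions were recovered, with 10 unplanted features called. The simulated counts had 1 spread per feature, shared by all groups, and no libraries that stand apart. These numbers therefore do not cover such differences in the real libraries. Total counts ran from 12.4 to 69.9 M. Alternatives were DESeq2 1.42.0, limma 3.58.1 voom with a spread per group, other scaling and filters, a replicate block, a muscle covariate and fewer libraries. The block was an alternative because the labels do not say that a number marks an animal.

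Named genes were the 12 highest and 12 lowest interactions and 4 of each class of response (called in all 22 fits that left out a library, mean of at least 10 CPM in a group), and members of 43 gene lists. A few genes that these rules pick are not reported here. The contrast, the lists and the tests were chosen with earlier results of these data known.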

Additional observations from a re-analysis of the deposited data

Results flagged for a closer look

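The day 14 change differed between bursa and tendon, by the test of that difference itself, in 5948 features, which are described above. A single library stood apart from the rest of its group, by the gap to its neighbour relative to the group's range, in 37 of 537 measures and groups tested. Chance gives about 1 in 20. The total of 69.95 M counts in day 14 bursa 6 was one of these. Control bursa 1 was the lowest in log2 CPM for C4a (7.45), Klrd1 (-0.31) and Rspo3 (0.10). Control bursa 2 was the lowest in log2 CPM for Chodl (-2.31), LOC108348074 (0.55) and Mkx (-3.25). Control bursa 4 was the highest in log2 CPM for Cemip (4.06), Inhba (4.20), Lrrc15 (1.37) and Plod2 (6.83).

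Day 14 bursa 1 was the lowest in log2 CPM for Ogn (4.84). Day 14 bursa 4 was the highest in log2 CPM for Mki67 (4.84). Day 14 bursa 5 was the lowest in log2 CPM for Timp1 (5.05). Day 14 bursa 6 was the highest in log2 CPM for Ccl2 (5.31), Cmpk2 (7.40), Cxcl10 (7.91), Gbp2 (9.19), Ifih1 (7.26), Ifit3 (8.67), Irf7 (10.16), Isg20 (4.72) and Mx1 (10.51). Day 14 bursa 6 was the lowest in log2 CPM for Ctsk (6.83) and LOC108348074 (4.09).

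Control tendon 1 was the lowest in log2 CPM for Mal (4.03) and Mx1 (0.71). Control tendon 2 was the highest in log2 CPM for Reck (7.45). Control tendon 3 was the lowest in log2 CPM for Scx (4.17). Control tendon 5 was the highest in log2 CPM for Loxl2 (6.92). Control tendon 5 was the lowest in log2 CPM for Hba-a2 (1.67). Day 14 tendon 3 was the lowest in log2 CPM for Skil (5.28). Day 14 tendon 4 was the lowest in log2 CPM for LOC108348074 (-3.25), Serpine2 (7.82) and Tgfb1 (6.30). Day 14 tendon 6 was the lowest in log2 CPM for Aldh3a1 (-0.44) and Serping1 (7.41). Log2 CPM values near -3.25 are those of a library with no counts. The causes of these gaps were not tested.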

How the results depend on the processing

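With the muscle level of each library as a covariate the interaction was called higher in 1667 and lower in 1977 features, and without control bursae 1 and 2 it was called higher in 3987 features. Calls in the bursa, 4629 with all libraries, were 3039 when only the 22 libraries were fitted, 2687 without control bursae 1 and 2, and 1530 with limma voom and a spread per group. The causes were not tested. Leaving out 1 library at a time gave 2352 to 3094 higher and 3049 to 3727 lower interactions, and 2967 (without control bursa 2) to 5513 (without control bursa 4) bursa calls. Other scaling, no filter on low counts, DESeq2 and mitochondrial transcripts removed kept all these counts within 1.5 times. With bursa-removed tendons in place of intact ones the interaction was higher in 2332 and lower in 3119 features.

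A replicate block by library number gave 3198 higher and 3436 lower features. Libraries of equal number in bursa and tendon had correlated deviations of -0.0891 to 0.134, and 5 of 11 correlated best with their own number. Among the day 14 libraries all 6 were above 0, at 0.0261 to 0.134, and 4 of 6 correlated best with their own number, a hint of pairing in the data. The numbers were not taken as pairs because not every correlation was over 0.1 and no label says what a number marks. Under the block the calls of C3, Ccl19, Cemip, Cxcl10, Gbp2, Inhba, Inhbb, Plin1, Plod2, Timp1 and Tnc were lost.

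Of 133 genes tested one by one for these settings, 76 kept their direction and their side of the threshold under every one and 57 did not. The interaction of Ckm turned to -0.45 with the muscle covariate, under which 34 other genes lost their call. In these losses, muscle content and the loss of the control tendon contrast cannot be told apart. The spread per group ended 28 calls, among them those of Cthrc1, Ifit3, Irf7, Myh3, Pck1, Pitx1 and Rrm2, and the fit of 22 libraries 12. Named by rule, Bmp5, Ckm, Inhba, Igfbp3, Plod2 and Reck lost their calls in several of the single leave-outs.

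Depth limits genes near the floor of 3 counts per library, among them Mmp13, Il6, Vsig4, Podnl1 and Pitx1, whose fold changes depend on the prior count.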
